A study of Mus musculus with 8 samples.

Results

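The genes described here encode the machinery that licenses DNA for replication: the subunits of the MCM helicase (Mcm2, Mcm3, Mcm4, Mcm5, Mcm6 and Mcm7), its loading factors (Orc1, Cdc6 and Cdt1) and geminin (Gmnn), which inhibits loading. They were taken by symbol, 10 genes of the 54838 in the count table, and all 10 had enough reads to be tested among 19101 genes. The RNA was that of 2 independent clones of male mouse induced pluripotent cells, which the sample labels call ESC. For the mitotic state, cells grown on irradiated feeder cells and then passaged to gelatin were arrested with nocodazole (200 ng/ml for 6 h), which blocks microtubule growth, and collected by shake-off. Early G1 is the state 1 h after wash-out of the drug and late G1 the state after 3 h, with the cells replated on gelatin, and asynchronous cells were not synchronised. All 4 states, with 2 libraries each, had 15% serum, LIF at 1000 U/ml and inhibitors of MEK and GSK3 at 1 and 3 uM, so no state shows the cells without these agents. The labels do not say which clone is which replicate number, and p-values measure only the spread between these pairs of libraries. By its title, the study asked how pluripotent identity is reset on entry into G1.

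Licensing is the step in which replication origins are prepared for a single use per cycle. The origin recognition complex, of which ORC1 is a subunit, binds DNA and with CDC6 and CDT1 loads MCM2-7 rings around it from the end of mitosis through G1. In S phase the rings are activated as the replicative helicase, CDT1 is destroyed and geminin binds what remains of it, which prevents reloading. Geminin itself is destroyed through the anaphase-promoting complex as cells leave mitosis. Many of these genes are textbook targets of E2F transcription factors, and pluripotent stem cells are known for a short G1 and abundant MCM proteins. The libraries measure mRNA, not protein or loaded rings.

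The promoter sequences below are shown because the genes share a feature that their choice did not use. RefSeq promoter windows of GRCm38, from 250 bases before to 50 after the start, were at hand for 8 of the 10 genes. They were searched on both strands for the E2F motif as TTTGGCGC, TTTCGCGC, TTTCCCGC or TTTGCCGC. At least 1 match was found for 7 of the 8 genes (87.5%), whereas 2.6% of all 27025 genes with such a window had one. By window it was 7 of 9 (77.8%), against 2.26% of all 32851 windows of the same length. Mcm2 was the gene with none, and Mcm4 and Gmnn had no window. In a list of DNA synthesis genes 7 of 27 had a match (25.9%). Each match is printed below within 30 bases, 5′ to 3′ on the gene's strand, with the matched letters in capitals, overlapping matches merged.
Mcm3, chr1:20820275-20820304, minus strand: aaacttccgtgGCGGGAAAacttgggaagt
Mcm3, chr1:20820263-20820292, minus strand: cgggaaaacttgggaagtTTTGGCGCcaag
Mcm5, chr8:75109347-75109376, plus strand: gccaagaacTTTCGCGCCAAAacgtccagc
Mcm6, chr1:128359795-128359824, minus strand: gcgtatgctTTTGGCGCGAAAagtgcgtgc
Mcm6, chr1:128359734-128359763, minus strand: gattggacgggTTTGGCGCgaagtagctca
Mcm7, chr5:138172030-138172059, minus strand: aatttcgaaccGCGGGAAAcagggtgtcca
Mcm7, chr5:138171849-138171878, minus strand: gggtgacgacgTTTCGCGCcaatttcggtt
Cdc6, chr11:98908002-98908031, plus strand: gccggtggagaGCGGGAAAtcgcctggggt
Cdt1, chr8:122568035-122568064, plus strand: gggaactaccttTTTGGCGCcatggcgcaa
Orc1, chr4:108579416-108579445, plus strand: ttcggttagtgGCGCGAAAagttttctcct

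In Mcm5 and in the first Mcm6 site, matches on opposite strands overlap in a near-palindrome. The 250 bases before the start are given for this pair, with E2F matches in capitals. The pair was taken since Mcm5 was called in comparisons with asynchronous cells and Mcm6 was not (values follow). The start is that of RefSeq. It lies upstream of the GENCODE gene, which begins at 75109569 for Mcm5 and, on the minus strand, at 128359664 for Mcm6. No GENCODE transcript of either gene held it.
Mcm5, chr8:75109259-75109508, plus strand: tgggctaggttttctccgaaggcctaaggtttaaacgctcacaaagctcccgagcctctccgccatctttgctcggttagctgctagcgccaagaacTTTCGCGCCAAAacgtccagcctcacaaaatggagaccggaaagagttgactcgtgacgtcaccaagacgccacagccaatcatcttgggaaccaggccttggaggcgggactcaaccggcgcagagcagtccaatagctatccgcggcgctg
Mcm6, chr1:128359706-128359955, minus strand: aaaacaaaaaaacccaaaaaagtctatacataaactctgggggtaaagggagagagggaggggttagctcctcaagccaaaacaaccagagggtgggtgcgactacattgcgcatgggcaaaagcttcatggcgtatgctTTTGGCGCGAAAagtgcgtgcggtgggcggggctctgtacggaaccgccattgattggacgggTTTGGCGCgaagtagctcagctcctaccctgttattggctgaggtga
The CCAAT box, bound by NF-Y, was in the windows of 6 of the 8 genes (75%), against 41.1% of all genes with a window. The CHR element TTTGAA was in 1 of 8 (12.5%), against 20.2% of all genes with a window. Mcm2, with no match, was called higher than in asynchronous cells in every synchronised state. Mcm3, Mcm6 and the first of 2 Mcm7 windows held 2 matches each. Mcm3 was called higher in early G1 against asynchronous cells, and Mcm6 and Mcm7 were not called in any comparison with all libraries. With 1 gene lacking a match, whether matches relate to the changes was not tested. A match is a string of letters, not a measured binding site.

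Total counts ranged from 20410621 to 25615244 per library. Levels are CPM, a count divided by its TMM-scaled library size, and a floor of 3 counts stood at 0.152 CPM or less, far below all members. Replicates differed unevenly. The biological coefficient of variation between replicates was 0.172 in mitotic, 0.0501 in early G1, 0.0414 in late G1 and 0.279 in asynchronous cells, and replicate 1 deviated from replicate 2 in the same direction in mitotic and asynchronous cells (r = 0.615 over 13528 genes, which are not independent). Of 8 markers of pluripotent cells none was near the floor, and 4 were highest in both mitotic libraries. Their sum was 6305 to 6699 CPM in mitotic, 5587 to 5878 in early G1, 5370.1 to 5410.0 in late G1 and 5316 to 6817 in asynchronous cells, most of all from Pou5f1 (1472 to 2121 CPM over all libraries). Zfp42 ranged from 155 CPM in an asynchronous to 479 in a mitotic library, and Tdgf1 was highest in asynchronous cells (1086 and 1325 CPM, 574 to 667 in the other states). Of 12 fibroblast markers, which irradiated feeder cells express, 10 were higher in each asynchronous library than in all 6 others. The summed level of the list was 895 to 935 CPM in mitotic, 764 to 784 in early G1, 773 to 792 in late G1 and 2025 to 2240.4 in asynchronous cells. Outside the asynchronous libraries most of it came from Sparc (712 to 1021 CPM over all libraries). Without Sparc the sum was 25.4 to 30.1 CPM in mitotic, 51.5 to 55.9 in early G1, 22.0 to 28.7 in late G1 and 1220 to 1249 in asynchronous cells. Of 12 macrophage markers, 8 were highest in the mitotic libraries. The list summed to 328 to 345 CPM in mitotic and 242 to 309 in asynchronous cells. In early G1 the sum was 254 to 261 CPM and in late G1 267 to 277. Most of it came from Laptm5. Without Laptm5 the sum was 95.5 to 110.5 CPM in mitotic and 77.7 to 83.2 in asynchronous cells. It was then 42.0 to 47.3 CPM in early G1 and 46.1 to 50.5 in late G1. No marker of either list was at 0 in all libraries. The part of these markers in the results was not tested. Whether asynchronous cells were harvested from feeders or gelatin is not stated in the sources used here. In comparisons with asynchronous cells, cell cycle state, drug, handling and the level of fibroblast markers cannot be told apart. In bulk RNA, fewer cells of a kind and less RNA per cell cannot be told apart.

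**Figure D1:**
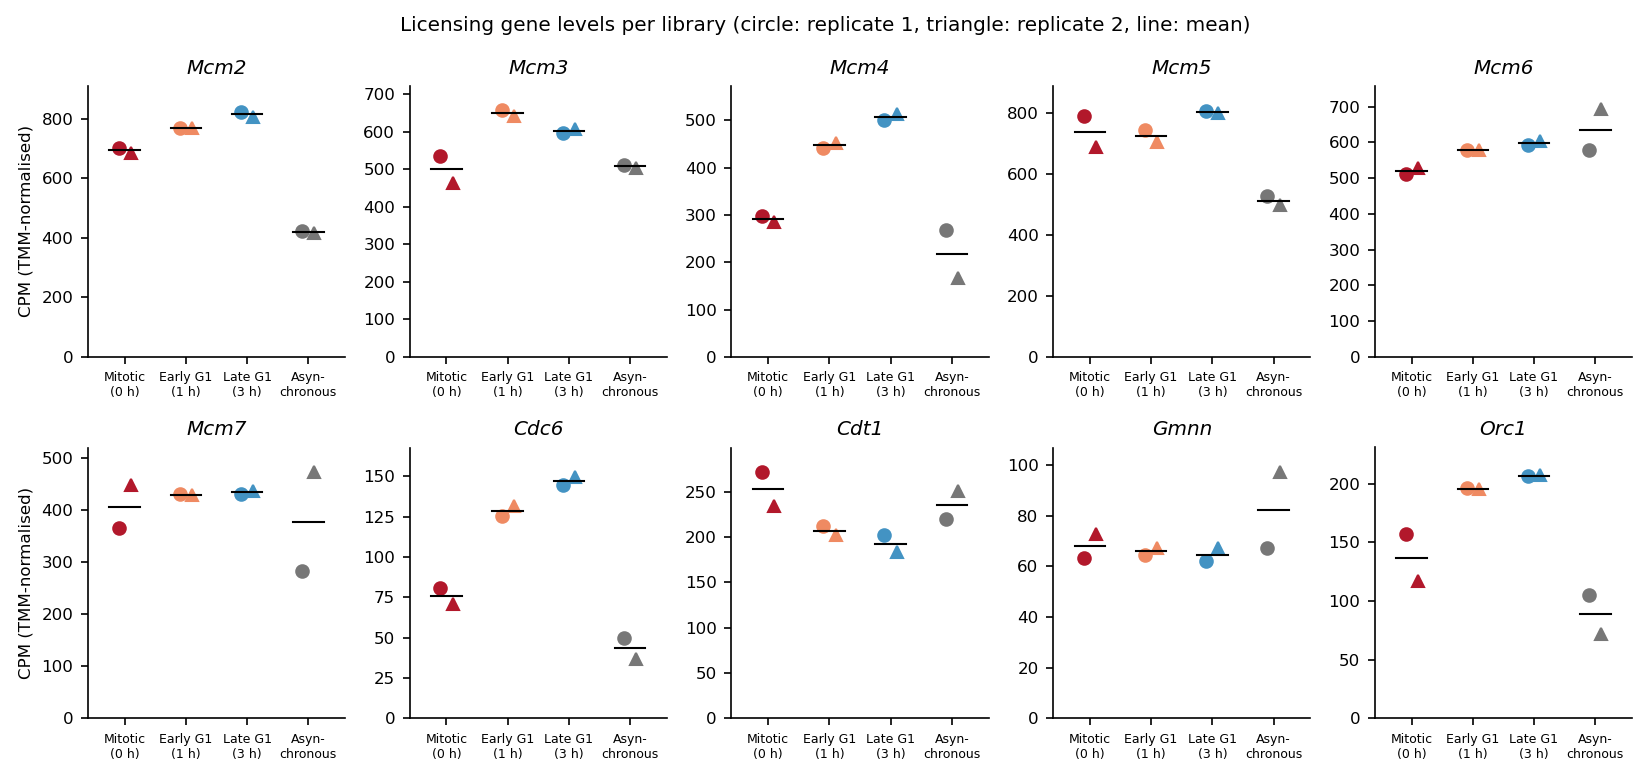
Level of each licensing gene in CPM (vertical axes, from 0) in the 8 libraries, by state with hours after release. Circles are replicate 1, triangles replicate 2 and lines the mean of n = 2. Cdc6 and Orc1 stand highest in late G1 and lowest in asynchronous cells, while Mcm7 and Gmnn differ more between the asynchronous replicates than between states.

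Over the 4 states together, 5 of the 10 genes differed in edgeR's test of any difference between states (Mcm2, Mcm4, Mcm5, Cdc6 and Orc1, adjusted p from 4.46e-04 to 0.00954), where 48.5% of all tested genes did, so the count as such is near the background. Cdc6 and Orc1, which start the loading reaction, were lowest in asynchronous cells, intermediate in mitotic cells and highest after release. Cdc6 (ENSMUSG00000017499, chromosome 11, 98907801 to 98923940, GRCm38), the ATPase that joins ORC to recruit the helicase, had 81.0 and 70.8 CPM in mitotic, 125 and 132 in early G1, 145 and 149.9 in late G1 and 49.8 and 36.9 in asynchronous cells. The 4 states did not overlap, in the order late G1, early G1, mitotic, asynchronous. The mean in late G1 was 3.40 times that in asynchronous cells, the widest range of the 10 genes. Orc1 (ENSMUSG00000028587, chromosome 4, 108579423 to 108614833), the ORC subunit whose protein level is known to vary over the cycle, had 157 and 117 CPM in mitotic, 197 and 195 in early G1, 206 and 207 in late G1 and 105 and 71.6 in asynchronous cells. The G1 libraries lay close together and above all others, and the mitotic and asynchronous pairs were spread. On the opposite strand an exon of Gm12743 overlaps 10.8% of the 3479 exonic bases of Orc1, and whether reads were counted by strand is not given in the sources used here.

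Early G1 cells had more Cdc6 mRNA than mitotic cells, at 129 ± 4.34 against 75.9 ± 7.15 CPM (SD, n = 2 each; log2 change 0.76, SE 0.16, edgeR adjusted p = 0.0388). It was the 1 member of 10 called in that hour, where 4.63% of all tested genes were called, 3.21% higher and 1.42% lower. The call was lost without any 1 of the 6 mitotic, early G1 and late G1 libraries (adjusted p from 0.110 to 0.288). Late G1 against mitotic cells gave a rise of 0.96 on the log2 scale for Cdc6 (147 ± 3.63 against 75.9 ± 7.15 CPM, adjusted p = 0.0121), lost without either mitotic or either late G1 library (adjusted p from 0.0702 to 0.124). Against asynchronous cells Cdc6 was 1.75-fold higher in mitotic cells (adjusted p = 0.00554), 2.96-fold in early G1 (adjusted p = 3.46e-04) and 3.40-fold in late G1 (adjusted p = 1.83e-04), and these 3 calls held without any single library. Orc1 was 2.21-fold and 2.33-fold higher in early and late G1 than in asynchronous cells (adjusted p = 0.00297 and 0.00199). In mitotic cells it was 1.55-fold higher than in asynchronous cells (137 ± 28.1 against 88.5 ± 23.8 CPM, adjusted p = 0.0366). That call was lost without asynchronous replicate 2, mitotic replicate 1 or any of the 4 G1 libraries (adjusted p from 0.0615 to 0.219). Between early G1 and mitotic cells Orc1 missed the threshold (log2 0.52, 95% interval 0.06 to 0.97, adjusted p = 0.176), as it did between late G1 and mitotic cells (log2 0.59, interval 0.13 to 1.05, adjusted p = 0.103). Without either asynchronous library both were called (adjusted p from 0.00564 to 0.0165).

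Cdt1 and Gmnn, the loading factor and its inhibitor, were not called in any of the 6 comparisons with all libraries. Cdt1 (ENSMUSG00000006585, chromosome 8, 122568015 to 122573554) had 272 and 234 CPM in mitotic, 212 and 202 in early G1, 202 and 184 in late G1 and 219.5 and 250.5 in asynchronous cells. It was the 1 member whose highest mean was in mitotic cells, and its mitotic libraries lay above all 4 G1 libraries and overlapped the asynchronous ones. Late G1 against mitotic cells gave a log2 difference of -0.39 (interval -0.69 to -0.09, adjusted p = 0.0993). With asynchronous replicate 1 or 2 left out, this was called lower (adjusted p = 0.0128 and 0.0110). Early G1 against mitotic cells was called lower without asynchronous replicate 2 (log2 -0.29, adjusted p = 0.0454), and late G1 against asynchronous cells without replicate 1 (-0.37, adjusted p = 0.0175) but not without replicate 2 (-0.19, adjusted p = 0.181). Gmnn (ENSMUSG00000006715, chromosome 13, 24751845 to 24761923) had 63.4 and 72.7 CPM in mitotic, 64.5 and 67.3 in early G1, 62.2 and 67.0 in late G1 and 67.1 and 97.2 in asynchronous cells. The 6 synchronised libraries overlapped and only asynchronous replicate 2 stood apart. Late G1 against mitotic cells gave -0.08 for Gmnn (interval -0.49 to 0.34). Late G1 against asynchronous cells gave -0.35 (interval -0.76 to 0.07, adjusted p = 0.143), and without asynchronous replicate 1 it was -0.58 and called (adjusted p = 0.00164). So were early G1 (-0.56, adjusted p = 0.00231) and mitotic cells (-0.51, adjusted p = 0.00452) against the remaining asynchronous library. Without asynchronous replicate 2 instead, the differences were -0.06 in late G1 (adjusted p = 0.709), -0.03 in early G1 (adjusted p = 0.855) and 0.02 in mitotic cells (adjusted p = 0.904).

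The balance of the transcripts was read from ratios of CPM per kb of exon within a library. Cdt1 over Gmnn was 2.00 and 1.50 in mitotic, 1.53 and 1.40 in early G1, 1.52 and 1.28 in late G1 and 1.53 and 1.20 in asynchronous cells, with overlapping ranges. Cdc6 over Gmnn was 0.358 and 0.273 in mitotic, 0.545 and 0.548 in early G1, 0.652 and 0.626 in late G1 and 0.208 and 0.106 in asynchronous cells. The states did not overlap for this ratio.

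The helicase subunits did not move as a block. Mcm2, Mcm4 and Mcm5 were higher in G1 than in asynchronous cells, Mcm3 in early G1, and Mcm6 and Mcm7 were not called in any comparison with all libraries. Mcm2 (ENSMUSG00000002870, chromosome 6, 88883474 to 88898780) had 703 and 685 CPM in mitotic, 768 and 768 in early G1, 822 and 807 in late G1 and 424 and 416 in asynchronous cells. The states did not overlap and the asynchronous pair lay far below the rest. Mcm4 (ENSMUSG00000022673, chromosome 16, 15623897 to 15637400) had 298 and 284 CPM in mitotic, 443 and 453 in early G1, 501 and 513 in late G1 and 269 and 167 in asynchronous cells. It showed the same order of states with a wide gap between the asynchronous replicates. Mcm5 (ENSMUSG00000005410, chromosome 8, 75109569 to 75128439) had 790.4 and 689 CPM in mitotic, 744 and 705 in early G1, 808 and 802 in late G1 and 529 and 497 in asynchronous cells. Its mitotic and early G1 libraries overlapped, and its asynchronous libraries were the lowest.

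Mcm3 (ENSMUSG00000041859, chromosome 1, 20802968 to 20820312) had 536 and 464 CPM in mitotic, 659 and 642 in early G1, 597 and 607 in late G1 and 512 and 504 in asynchronous cells. It was the 1 subunit with its highest mean in early G1, and the mitotic libraries straddled the asynchronous ones. Mcm6 (ENSMUSG00000026355, chromosome 1, 128331590 to 128359664) had 512 and 529 CPM in mitotic, 577 and 579.7 in early G1, 591 and 603 in late G1 and 579 and 693 in asynchronous cells. It was the 1 subunit with its highest mean in asynchronous cells. Mcm7 (ENSMUSG00000029730, chromosome 5, 138164583 to 138172422) had 365 and 447 CPM in mitotic, 430.1 and 428 in early G1, 430.2 and 437 in late G1 and 283 and 471 in asynchronous cells. Its asynchronous libraries lay on either side of all others. Exons of Ap4m1 and Cops6 on the opposite strand overlap 7.25% and 1.45% of its 4426 exonic bases, and the microRNA genes Mir25 and Mir93 lie within it.

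**Figure D2:**
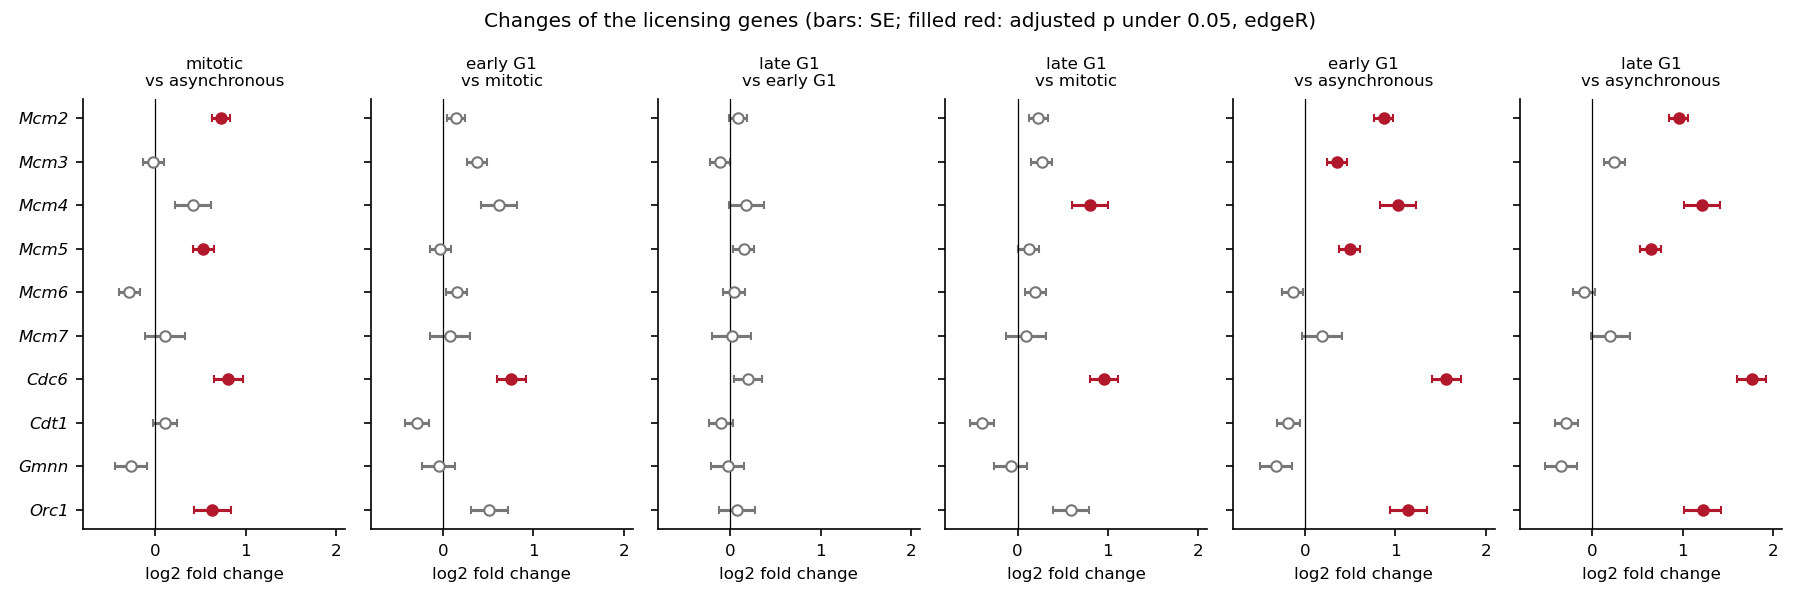
Log2 fold change of each licensing gene (rows) in the 6 comparisons (panels), first-named state over second-named state, with bars of 1 SE. Filled red points passed an edgeR adjusted p of 0.05. Points to the right of 0 are higher in the first-named state. No member passed in late G1 against early G1, and no member was called lower in any panel.

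In mitotic against asynchronous cells Mcm2 was 1.65-fold higher (694 ± 12.2 against 420.1 ± 5.11 CPM, SD, n = 2 each, adjusted p = 0.00129) and Mcm5 1.44-fold (739.7 ± 71.7 against 513 ± 22.4 CPM, adjusted p = 0.00846). The Mcm5 call was lost without mitotic replicate 1 (adjusted p = 0.0582). With Cdc6 and Orc1 this made 4 of 10 members called higher and 0 lower, where 40.7% of all tested genes were called, 18.3% higher and 22.4% lower. At an unadjusted p under 0.05, 1 member was lower, and DESeq2 called 0 lower. With library totals in place of TMM, Mcm6 was called lower (adjusted p = 0.0413) and Orc1 was not called (adjusted p = 0.0645). The fit of these 2 states alone called neither Mcm5 (adjusted p = 0.0714) nor Orc1 (adjusted p = 0.106). The median log2 change was 0.26 over the members and -0.05 over all tested genes. Mcm6 gave a log2 difference of -0.29 (interval -0.56 to -0.01) and missed the threshold (adjusted p = 0.0869). It was called lower without asynchronous replicate 1 (log2 -0.41, adjusted p = 0.00253). Mcm4, at 291 ± 9.83 against 218 ± 72.1 CPM, also missed it (adjusted p = 0.126) and was called without asynchronous replicate 1 (log2 0.81, adjusted p = 8.91e-05). Without asynchronous replicate 2 Mcm6 gave -0.16 (adjusted p = 0.152) and Mcm4 0.11 (adjusted p = 0.317). Without asynchronous replicate 1, 5 members were called higher and 2 lower, and 25.5% and 26.6% of all tested genes. Mcm7 depended on which asynchronous library was kept: without replicate 2 it was called higher in mitotic cells (log2 0.52, adjusted p = 0.00651), and without replicate 1 its log2 difference was -0.21 (adjusted p = 0.156).

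In the first hour after release no helicase subunit was called with all libraries. Mcm4 stood at 448 ± 7.20 in early G1 against 291 ± 9.83 CPM in mitotic cells (log2 0.62, interval 0.17 to 1.07, adjusted p = 0.116) and Mcm3 at 650.4 ± 12.5 against 500.2 ± 50.9 CPM (log2 0.38, interval 0.12 to 0.64, adjusted p = 0.101). Both were called when either asynchronous library was left out (adjusted p from 4.25e-04 to 0.0118), in a fit where all states share 1 estimate of spread. Without asynchronous replicate 1, 4 members were called higher, and without replicate 2, 4 higher and 1 lower (Cdt1). All tested genes called were then 22.3% and 22.4%. Mcm5 gave a log2 difference of -0.03 (interval -0.29 to 0.23). Over the 10 members the median log2 change was 0.15, against -0.01 over all genes, and 4 members had an unadjusted p under 0.05, all of them higher. With all libraries 0 members were called lower by edgeR or by DESeq2.

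From early to late G1 no member was called, and no gene of the 19101 was (0%), with 724 genes and 0 members at an unadjusted p under 0.05 by edgeR. DESeq2 called 26 genes, none of them members. The largest member difference was that of Cdc6 (147 ± 3.63 in late G1 against 129 ± 4.34 CPM in early G1, log2 0.20, interval -0.16 to 0.56). Late G1 libraries lay above early G1 libraries for 7 members, below for 2 (Mcm3 and Cdt1) and overlapped for Gmnn, where 24.4% of all tested genes lay above and 25.9% below. In the fit of these 2 states alone, where replicates were close, Cdc6, Mcm4 and Mcm5 were called higher in late G1 (log2 0.20, 0.18 and 0.15, edgeR adjusted p = 0.0196, 0.0176 and 0.0450). That fit called 8.44% of all tested genes, 3.5% higher and 4.94% lower.

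Over the 3 h from mitotic arrest to late G1, Mcm4 and Cdc6 were called, 2 of 10 members, where 9.48% of all tested genes were called, 5.43% higher and 4.04% lower. Mcm4 was 1.74-fold higher (507 ± 8.72 against 291 ± 9.83 CPM, adjusted p = 0.0432), a call lost without any 1 of the 6 mitotic, early G1 and late G1 libraries (adjusted p from 0.0959 to 0.235). Mcm2 (log2 0.23), Mcm3 (0.27), Mcm5 (0.12), Mcm6 (0.20) and Mcm7 (0.10) were not called, with upper interval bounds from 0.39 to 0.60. No member was called lower by edgeR or DESeq2, and 1, Cdt1, was lower at an unadjusted p under 0.05. Without either asynchronous library Mcm2, Mcm3 and Orc1 were also called higher and Cdt1 lower, which made 5 higher and 1 lower (Mcm2 and Mcm3 adjusted p from 0.0274 to 0.0389). In each of these settings 27.5% of all tested genes were called.

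Compared with asynchronous cells, early G1 had 6 members called higher and 0 lower, where 46% of all tested genes were called, 21.3% higher and 24.7% lower. Late G1 had 5 and 0, where 48.7% of all tested genes were called, 22.7% higher and 26% lower. At an unadjusted p under 0.05 the counts were the same, and so were those of DESeq2. Without asynchronous replicate 1, 2 members were called lower in each, with 6 higher in early and 5 in late G1, where 56.5% and 57.7% of all tested genes were called. Mcm4 showed the largest change of the subunits, 2.05-fold in early and 2.32-fold in late G1 (448 ± 7.20 and 507 ± 8.72 against 218 ± 72.1 CPM, adjusted p = 0.00424 and 0.00192). Mcm2 was 1.83-fold and 1.94-fold higher (768 ± 0.302 and 814 ± 10.9 against 420.1 ± 5.11 CPM, adjusted p = 5.59e-04 and 3.23e-04). Mcm5 was 1.41-fold and 1.57-fold higher (adjusted p = 0.00943 and 0.00274), and its early G1 call was lost without either early G1 library (adjusted p = 0.0768 and 0.0552). Mcm3 was called in early G1 (1.28-fold, adjusted p = 0.0333), a call lost without any 1 of the 4 G1 libraries (adjusted p from 0.0734 to 0.161), and not in late G1 (1.19-fold, adjusted p = 0.107). The fit of early G1 and asynchronous cells alone called neither Mcm5 (adjusted p = 0.0521) nor Mcm3 (adjusted p = 0.104), which left 4 members, where it called 30.8% of all tested genes. Mcm6 was not called in early G1 (log2 -0.14, interval -0.41 to 0.14) or late G1 (log2 -0.09, interval -0.37 to 0.18). Without asynchronous replicate 1 it was called lower in early G1 (log2 -0.25, adjusted p = 0.0237), and without replicate 2 it gave -0.0050 (adjusted p = 0.967). Mcm7 had log2 0.19 in early G1 and 0.20 in late G1. It was called higher in each without asynchronous replicate 2 (0.60 and 0.61, adjusted p = 0.00303 and 0.00236) and gave -0.13 and -0.12 without replicate 1. These comparisons share the asynchronous libraries.

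Across the 8 libraries the subunits fell into genes that varied together and genes that did not. Pearson's r of log2 CPM between pairs of the 6 subunits ran from -0.55 to 0.96 with a median of 0.34 (15 pairs), as a description of libraries that share states and depth. Mcm2 and Mcm5 were the most alike (0.963), and Mcm5 and Mcm6 the least (-0.553). Mcm4 followed Cdc6 (0.979) and Orc1 (0.973) more closely than it did any other subunit. Gmnn ran against Orc1 (-0.827) and with Mcm6 (0.698). In asynchronous replicate 2 Gmnn and Mcm6 stood highest (97.2 and 693 CPM) and Orc1 lowest (71.6 CPM). How far these r values rest on that library was not tested.

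Per exon length, Cdc6, Orc1 and Gmnn had lower means than every helicase subunit in each state, and Cdt1 stood among or below the subunits. The highest subunit was between 1.83 and 3.18 times the lowest in any library, in CPM per kb. In late G1 the order was Mcm5 (202 ± 1.05 CPM per kb), Mcm3 (161 ± 1.90), Mcm4 (141 ± 2.43), Mcm6 (128 ± 1.69), Mcm2 (117 ± 1.57) and Mcm7 (97.9 ± 1.03), each neighbour apart by more than the replicate spread. In asynchronous cells Mcm6 (136 ± 17.2) did not differ beyond its spread from Mcm3 (135 ± 1.44) or Mcm5 (128 ± 5.62). Mcm4 (60.8 ± 20.1) and Mcm2 (60.4 ± 0.734) did not differ beyond their spread either. Cdt1 and Orc1 did not differ beyond their spread in late G1, at 61.4 ± 4.17 and 59.4 ± 0.170 CPM per kb, and stood at 74.8 ± 6.97 and 25.4 ± 6.85 in asynchronous cells. Cdc6 was the lowest of the 10 in every state, from 8.29 ± 1.75 in asynchronous cells to 28.2 ± 0.694 CPM per kb in late G1. Summed over the 6 subunits, CPM was 3204 and 3099 in mitotic, 3621 and 3575 in early G1, 3749.9 and 3769 in late G1 and 2596 and 2749 in asynchronous cells. The states did not overlap. Of the 6 subunits' summed CPM per kb, Mcm4 made up 11.5% in mitotic, 15.4% in early G1, 16.7% in late G1 and 10.0% in asynchronous cells, and Mcm6 15.9%, 15.3%, 15.1% and 22.5% in the same order. Exon length was that of all annotated exons, which can exceed the transcript that the cells use.

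**Figure D3:**
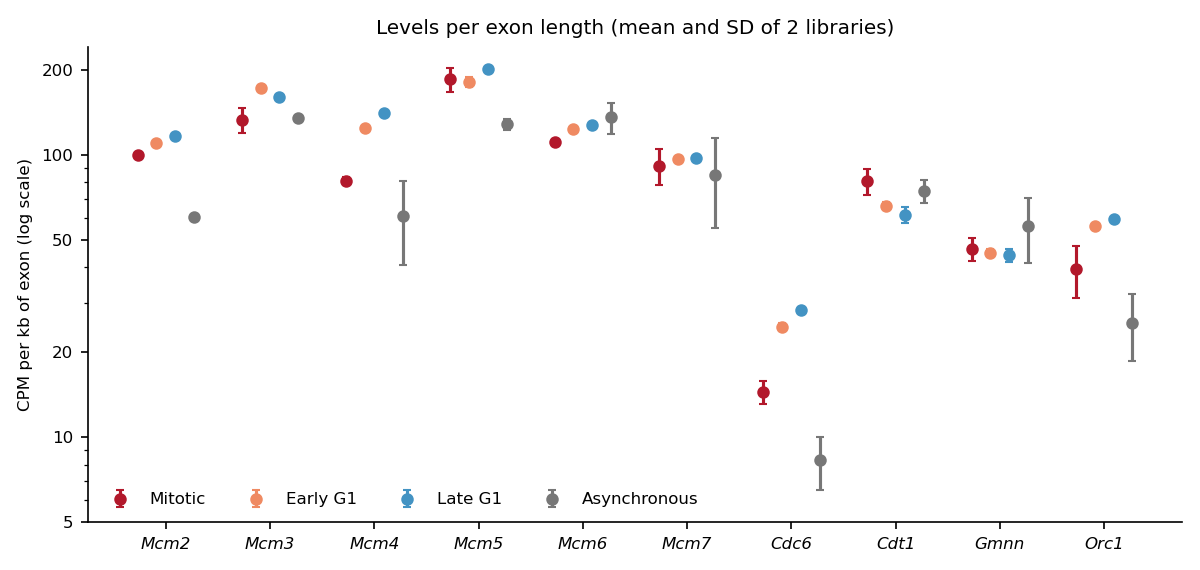
Level of each licensing gene per exon length in CPM per kb (log scale), mean and SD of n = 2 libraries for each of the 4 states. Within every state Cdc6 is the lowest, at 8.29 CPM per kb in asynchronous cells and 28.2 in late G1, and the 6 subunits lie within a few-fold of each other.

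The genes whose pattern was most like the mean of the 6 subunits, by Pearson's r over the 8 libraries among 7894 well-expressed genes, were Dnaaf5 (0.993), Mthfd1 (0.992), Naa50 (0.992), Fam83h (0.990), Fbxo45 (0.990), Prps1l3 (0.988), Plk2 (0.987), Rrp1b (0.987), Gmfb (0.987) and Gon7 (0.987). Mthfd1, an enzyme of one-carbon metabolism, averaged 438 CPM in mitotic, 535 in early G1, 561 in late G1 and 334 in asynchronous cells. Plk2, a Polo-like kinase, averaged 89.1, 178, 266 and 34.6 CPM in the same order. The closest to Cdc6 were Tmppe, Gpalpp1 and Mob1b (0.997 to 0.998), and the closest to Orc1 were Mfap3, Ipo9 and Fam160a2 (0.996 to 0.997). The closest to Cdt1 were Rfng, Tsc22d4 and Smarca4 (0.975 to 0.980), and the closest to Gmnn were Cenph, Renbp and Chchd2 (0.981 to 0.983). No gene of the pathway lists was among these, and with 4 states in pairs many genes reach a high r.

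The other genes of the pathway were described from 5 lists. For all tested genes, the numbers called with 1 library left out are given in the last section. Early G1 against mitotic cells had 3.21% of all tested genes called higher and 1.42% lower, shares that also changed with the library left out. Of 15 regulators of CDT1, geminin and licensing, 6 rose there, 0 fell and 9 were not called (median log2 0.47, all genes -0.01). At an unadjusted p under 0.05, 1 was lower, and DESeq2 called 7 higher and 0 lower. Fbxo5, which encodes the inhibitor of the anaphase-promoting complex, stood at 89.2 ± 1.99 against 12.5 ± 0.274 CPM (adjusted p = 7.25e-04). Cdk1, the mitotic kinase gene, stood at 180.0 ± 7.15 against 51.8 ± 0.553 CPM (adjusted p = 7.25e-04), and Ccne2, a cyclin of S phase entry, at 38.9 ± 0.164 against 10.8 ± 0.811 CPM (adjusted p = 0.00640). Of 13 E2F and pocket protein genes 3 rose and 0 fell. They were the activator E2f2 (1.59-fold, adjusted p = 0.0467) and the repressors E2f7 and E2f8 (2.08-fold and 2.38-fold, adjusted p = 0.0376 and 0.0289). Of 15 origin firing genes 2 rose, the scaffold gene Topbp1 (210.5 ± 14.8 against 71.9 ± 3.51 CPM, adjusted p = 0.0134) and Wdhd1 (2.06-fold, adjusted p = 0.0195), and 0 fell. Of 12 genes of origin recognition and MCM relatives 0 were called by edgeR and 1 by DESeq2, with 1 at an unadjusted p under 0.05. Of 32 DNA synthesis genes 1 rose, Slbp, the histone stem-loop binding protein gene (1.75-fold, adjusted p = 0.0376). With any 1 of the 8 libraries left out, the genes called higher ranged from 2 to 9 regulators, 0 to 6 E2F and pocket protein genes and 0 to 4 firing genes.

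**Figure D4:**
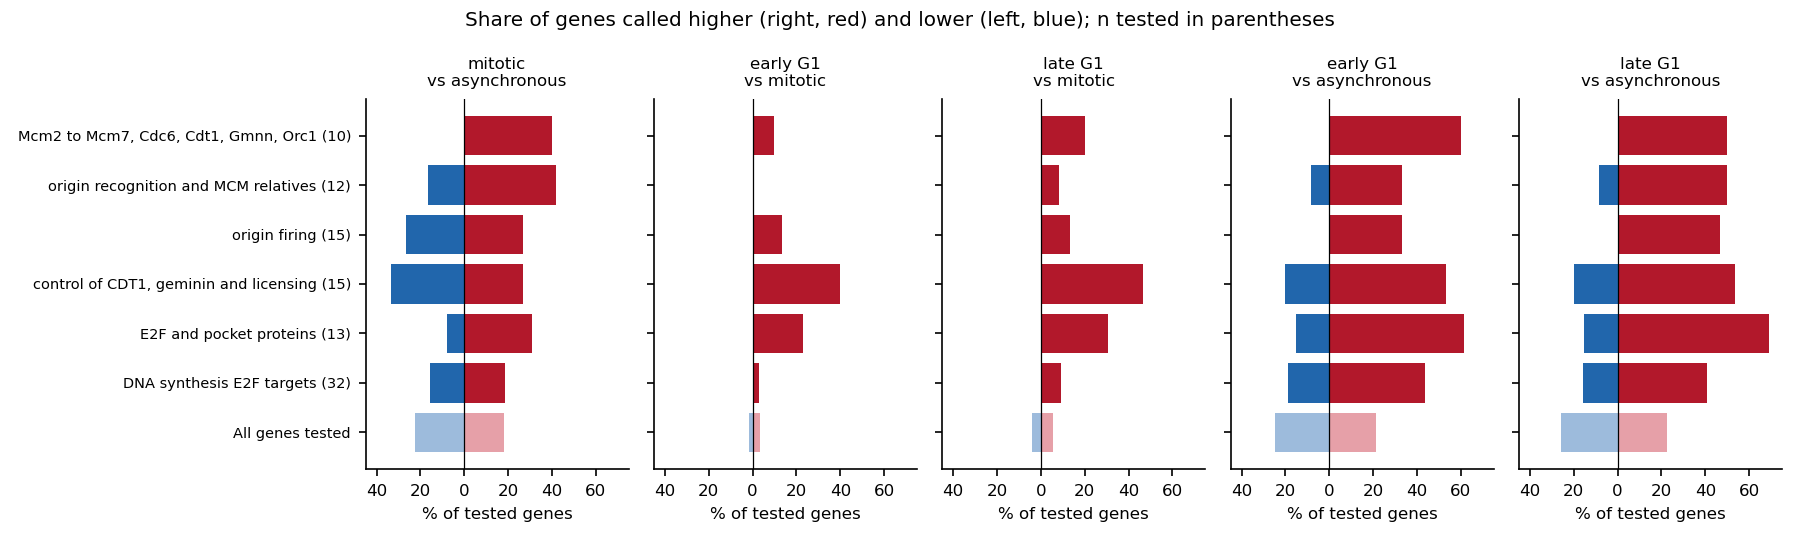
Share of tested genes called higher (right of 0, red) and lower (left of 0, blue) in the first-named state, in percent, for the 10 licensing genes, the 5 pathway lists and all 19101 tested genes (pale bars). Late G1 against early G1 is left out, since 0 genes were called there by edgeR.

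Late G1 against mitotic cells had 5.43% of all tested genes called higher and 4.04% lower, shares that also changed with the library left out. By then 7 of the 15 regulators were higher than in mitotic cells and 0 lower. Fbxo5 was 7.92-fold, Ccne2 4.61-fold and Cdk1 2.63-fold higher (adjusted p = 4.50e-04, 0.00259 and 0.00208). Of the E2F and pocket protein genes 4 of 13 rose, with E2f8 at 114 ± 2.43 against 40.2 ± 6.19 CPM (adjusted p = 0.0108). Of the firing genes 2 of 15 rose, and of the DNA synthesis genes 3 of 32, among them Rrm2, a ribonucleotide reductase subunit (512 ± 7.15 against 317 ± 65.5 CPM, adjusted p = 0.0316). Of the origin recognition genes and MCM relatives 1 of 12 rose. It was Mcm8, an MCM paralogue of homologous recombination (43.1 ± 1.46 against 27.6 ± 1.67 CPM, adjusted p = 0.0384). With any 1 library left out, 3 to 10 regulators, 0 to 8 E2F and pocket protein genes and 0 to 10 DNA synthesis genes were called higher.

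In mitotic against asynchronous cells 18.3% of all tested genes were called higher and 22.4% lower, shares that also changed with the library left out. Of the 15 regulators 4 rose and 5 fell. Those with the smallest p had fallen: Fbxo5 (12.5 ± 0.274 against 78.4 ± 15.0 CPM, adjusted p = 4.97e-05), Cdk1 (51.8 ± 0.553 against 246 ± 14.2 CPM, adjusted p = 3.05e-05) and Fzr1, an activator of the anaphase-promoting complex (59.0 ± 1.62 against 184 ± 41.2 CPM, adjusted p = 2.78e-04). Of the 15 firing genes 4 rose and 4 fell. Dbf4, which activates the CDC7 kinase (320.0 ± 23.1 against 141 ± 32.1 CPM, adjusted p = 0.00110), the firing factor gene Ticrr (266 ± 39.5 against 113 ± 23.0 CPM, adjusted p = 0.00119) and the helicase gene Recql4 (2.18-fold, adjusted p = 5.44e-04) rose. Of the origin recognition genes and MCM relatives 5 rose and 2 fell, with Orc5 1.49-fold and Mcmbp, whose protein binds MCM subunits, 1.57-fold higher (adjusted p = 0.00470 and 0.00398). Of the E2F and pocket protein genes 4 rose, E2f3 and E2f4 among them (2.11-fold and 1.90-fold), and 1 fell, Rbl1. Of the 32 DNA synthesis genes 6 rose, a share near that of all genes, Exo1 among them (1.78-fold, adjusted p = 0.00314), and 5 fell, Pold2 and Chaf1b among them (adjusted p = 0.00164 and 0.00524). With any 1 library left out, 2 to 11 DNA synthesis genes were called higher and 2 to 8 lower, 3 to 6 firing genes higher and 1 to 4 lower, and 3 to 7 regulators higher and 5 to 7 lower.

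In late G1 against asynchronous cells 22.7% of all tested genes were called higher and 26% lower, shares that also changed with the library left out. In the E2F and pocket protein list 9 of 13 rose and 2 fell, with E2f8 at 114 ± 2.43 against 21.7 ± 8.33 CPM and E2f7 at 61.6 ± 3.41 against 15.1 ± 4.72 CPM (adjusted p = 2.85e-04 and 3.64e-04). Of the regulators 8 of 15 rose and 3 fell. Skp2, a ubiquitin ligase subunit that targets CDT1, was 2.91-fold and Ccne2 5.21-fold higher (adjusted p = 2.29e-04 and 2.02e-04). Of the firing genes 7 of 15 rose and 0 fell, Recql4, Ticrr and Pole2 with the smallest p (2.39-fold, 2.19-fold and 1.66-fold). Of the origin recognition genes and MCM relatives 6 of 12 rose, Orc2 (1.72-fold, adjusted p = 0.00227) and Mcmbp (1.92-fold, adjusted p = 6.42e-04) among them, and 1 fell, Mcmdc2, an MCM-domain gene of meiosis that stood at 2.23 ± 0.568 against 6.20 ± 1.05 CPM. Of the DNA synthesis genes 13 of 32 rose, with the polymerase clamp gene Pcna 2.26-fold higher (214 ± 9.95 against 94.4 ± 17.7 CPM, adjusted p = 8.03e-04), and 5 fell. With any 1 library left out, the genes called were 7 to 11 higher and 1 to 2 lower for the E2F and pocket proteins, 5 to 10 and 3 to 4 for the regulators, 3 to 10 and 0 to 3 for the firing genes, 2 to 7 and 0 to 2 for the origin recognition genes and MCM relatives, and 9 to 15 and 1 to 6 for DNA synthesis. The 3 lower firing genes came without asynchronous replicate 2, with 8 higher. In early G1 the counts against asynchronous cells were 8 higher and 2 lower of 13, 8 and 3 of 15, 5 and 0 of 15, 4 and 1 of 12 and 14 and 6 of 32 for the same lists in that order. Of all tested genes 21.3% were called higher and 24.7% lower there. The G1 libraries had the feeder marker levels given above, far below the asynchronous ones.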

How the data were processed

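The authors deposited raw counts per gene, as 1 table with Ensembl gene identifiers. Per the submitters' processing notes the tools were TopHat2, SAMtools and HTSeq and the build was mm10; the annotation release, and whether strand was used, are not given in these sources. Per the labels' protocols the libraries came from a stranded poly(A) kit with single reads. Symbols (99.9% of genes matched) and exon lengths came from GENCODE M21. The counts were analysed as deposited with edgeR 4.0.16 in R 4.3.3: genes were kept by filterByExpr with a minimum count of 10, libraries scaled by TMM, and the robust quasi-likelihood test was run over all 4 states, with no term for replicate and 4 residual degrees of freedom. P-values were adjusted by Benjamini-Hochberg over all 19101 tested genes, with a threshold of 0.05. Intervals are 95% intervals of 1 comparison, not adjusted. The script was tested on simulated data. Log2 CPM used a prior count of 2. Alternatives were DESeq2 1.42.0, other scalings, no filter, fits of 2 states, terms for replicate and each library left out. The members and lists were chosen with earlier results of these data known. The genes named from a pathway list were up to 3 with the smallest p among those called in a comparison, and the genes most like a member were those with the highest Pearson's r. The labels do not state that a replicate number marks the same clone in each state. Intervals and floors cover counting error or the spread of 2 libraries only.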

Additional observations from a re-analysis of the deposited data

How the results depend on the processing

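Over the alternatives, DESeq2, RLE size factors and the replicate block changed no call of a licensing gene. The numbers were not shown to pair the samples: deviations of same-numbered libraries correlated at 0.615 for mitotic and asynchronous cells, -0.106 for early G1 and mitotic, -0.284 for early G1 and asynchronous, and between -0.0104 and 0.0417 for the other pairs of states. With the replicate block the members called were 4 in mitotic against asynchronous cells, 1 in early G1 against mitotic, 0 in late G1 against early G1, 2 in late G1 against mitotic, 5 in late G1 against asynchronous and 6 in early G1 against asynchronous, and the genes called were 7889, 803, 0, 1744, 9430 and 8921 in the same order of comparisons. With early G1 numbers crossed in the block, added after the data were seen, the members were 4, 1, 0, 3, 5 and 6 and the genes 8504, 1272, 0, 2422, 10017 and 9541. Fits of 2 states called 2 members and 3883 genes in mitotic against asynchronous cells, 4 and 2759 in early G1 against mitotic, 3 and 1493 in late G1 against early G1 and 5 and 3959 in late G1 against mitotic, and 4 members and 5626 genes in early G1 against asynchronous cells. Leaving out replicate 1 of both mitotic and asynchronous cells left 1 library in each, assumed to vary like the others. Members and genes were then 7 and 11700 in mitotic against asynchronous cells and 6 and 7918 in early G1 against mitotic. They were 2 and 1518 in late G1 against early G1 and 8 and 8525 in late G1 against mitotic. Late G1 against asynchronous cells had 9 members called. Early G1 against asynchronous cells had 13517 genes called. In every comparison with asynchronous cells, most of all tested genes were called in this setting. A term for replicate 1 of mitotic and asynchronous cells gave 4 and 5882 in early G1 against mitotic and 16 genes in late G1 against early G1. It gave 6 and 6593 in late G1 against mitotic. Without a filter there were 3 and 2362 in early G1 against mitotic, 58 genes in late G1 against early G1 and 3289 genes in late G1 against mitotic. DESeq2 called 1410 genes in early G1 against mitotic and 26 in late G1 against early G1. Library totals alone left 1 member in late G1 against mitotic cells (Mcm4 adjusted p = 0.0544), where 8.31% of all tested genes were called. They gave 3 members higher and 1 lower in mitotic against asynchronous cells, where 16.2% of all tested genes were called higher and 23.3% lower. Leaving out 1 library, where the lone library is assumed to vary like the others, gave 2 to 7 members and 4737 to 10382 genes in mitotic against asynchronous cells, 0 to 5 and 42 to 4518 in early G1 against mitotic, 0 to 0 and 0 to 25 in late G1 against early G1, 0 to 6 and 73 to 5546 in late G1 against mitotic, 5 to 7 and 5096 to 11489 in late G1 against asynchronous, and 4 to 8 and 4186 to 11237 in early G1 against asynchronous cells. The sign of these log2 differences, none of them called with all libraries, turned under some settings. Leaving out 1 library gave -0.15 to 0.053 for Gmnn in early G1 against mitotic cells, -0.083 to 0.026 in late G1 against early G1, -0.17 to 0.024 in late G1 against mitotic and -0.51 to 0.020 in mitotic against asynchronous cells. It gave -0.12 to 0.089 for Mcm3 in mitotic against asynchronous cells, -0.13 to 0.070 for Mcm5 in early G1 against mitotic, and -0.21 to 0.041 for Mcm6 in late G1 against asynchronous cells. For Mcm7 it gave -0.21 to 0.52 in mitotic, -0.13 to 0.60 in early G1 and -0.12 to 0.61 in late G1 against asynchronous cells, and -0.061 to 0.23 in early G1 and -0.047 to 0.25 in late G1 against mitotic cells. Without replicate 1 of both mitotic and asynchronous cells, mitotic against asynchronous cells gave -0.092 for Cdt1 and -0.071 for Mcm7, early G1 against mitotic 0.070 for Mcm5, and Mcm7 gave -0.061 and -0.046 in early and late G1 against mitotic and -0.13 and -0.12 against asynchronous cells. With the term for those libraries Mcm5 gave 0.045 in early G1 against mitotic cells, and Mcm7 gave -0.17 and -0.16 in early and late G1 against mitotic and -0.030 and -0.014 against asynchronous cells. Library totals gave 0.014 for Mcm5 in early G1 against mitotic cells, and the fit of 2 states 0.013 for Mcm3 in mitotic against asynchronous cells. The cause was not tested. All members lay above the floor of 3 counts in every library.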
